A study of Mus musculus with 6 samples.

Results

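The genes described here are 39 interferon-stimulated genes, that is, antiviral, sensing and signalling genes that type I and type II interferons induce, with chemokines left out. They were chosen by symbol, and each of the 39 symbols matched 1 of the 39174 gene rows of the deposited table. RNA was sequenced from MLO-Y4 cells, a cloned mouse line with osteocyte features that was derived from long bone of mice carrying a large T antigen transgene driven by the osteocalcin promoter. In 3 flow cultures, cells on collagen-coated glass slides were exposed to oscillating fluid flow for 2 h at a shear stress of 10 dyn/cm², then kept in fresh medium for 2 h before lysis. The 3 non-flow control cultures were sham-treated in parallel and carried no other difference in the labels, and all 6 were grown in the same serum-containing medium, for which the labels name no added interferon. Values are FPKM as deposited, which normalise each gene for transcript length and library depth.

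Read depth was estimated from the steps between low FPKM values and came to 5760000 to 19230000 reads in the flow libraries and 17910000 to 19020000 reads in the controls. At these depths 3 reads on 1 kb equalled 0.156 to 0.521 FPKM, well under the lowest value of any member, 7.001 FPKM. Of the markers of the line, Gja1, Pdpn, Cd44 and Phex were measured, but the osteocyte genes Sost, Mepe and Fgf23 were listed at 0 in every library and Dmp1 did not exceed 0.0354 FPKM. Of 8 osteoblast markers 2 stayed below 1 FPKM in every library. The 8 summed to 6721 to 8568 FPKM in flow and 7184 to 7325 FPKM in controls, mostly Spp1. Of 10 leukocyte and macrophage markers, 8 stayed below 1 FPKM in every library, with Itgam listed at 0 throughout and Ptprc at 0.0142 FPKM in 1 control and listed at 0 elsewhere. The 10 summed to 8.35 to 10.8 FPKM in flow and 9.35 to 11.2 FPKM in controls, nearly all of it Cd14 and Cd68. Of 7 endothelial markers 5 stayed below 1 FPKM, and the 7 summed to 81.0 to 91.7 FPKM in flow and 92.7 to 119.0 FPKM in controls, mostly Eng.

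Cells that detect viral nucleic acid secrete type I interferons, which bind the receptor IFNAR on the same and neighbouring cells and activate the kinases JAK1 and TYK2. These act on a complex that holds STAT2 and IRF9 and binds the interferon-stimulated response element (ISRE) of target genes. Type II interferon, made mainly by lymphocytes, acts through IFNGR, JAK1 and JAK2, and its target genes carry the gamma-activated site (GAS). The induced proteins block viral translation and budding, degrade RNA, sense further nucleic acid, present peptides and limit the response itself. In bone, type I interferon is known as a restraint on osteoclast formation.

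These regulatory letters were looked for in the RefSeq promoter windows of build GRCm38.p6, which run from 250 bases before to 50 after a transcription start. A window was held for 30 of the 39 members. The ISRE was searched as GAAA and GAAA parted by any 2 bases, or on the other strand TTTC and TTTC parted by any 2 bases, and the GAS as TTCNNNGAA, which reads the same on both strands. Neighbouring matches may overlap by a few bases. The ISRE letters occurred in 16 of the 30 members (53.3%), against 3.75% of 8194 other tested genes with a window and 3.99% of all 27025 genes with a window. The GAS letters occurred in 9 of the 30 (30%), against 8.05% of those other tested genes and 9.55% of all genes. In 5 members both occurred and in 10 neither. The 16 members with ISRE letters had a median log2 fold change, flow minus control, of -0.09, and the 10 with neither had -0.20, a difference that was not tested. A match is a description of the letters and not evidence that a factor was bound.

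Windows are shown for 6 members, written 5′ to 3′ on the strand of the gene with ISRE and GAS letters in capitals, as examples of overlapping, separate and neighbouring matches and of a GAS alone. Arrangements not shown include a single ISRE alone, as in Stat2, and ISRE letters after the start, as in Ddx58. Isg15, chr4:156200769-156201068 (minus strand), has 3 overlapping ISRE matches, and Ifit1, chr19:34640639-34640938 (plus strand), has 2 separate ones in the opposite orientation. Bst2, chr8:71537423-71537722 (minus strand), has a GAS that runs into 2 overlapping ISRE matches. Igtp, chr11:58199306-58199605 (plus strand), has a GAS followed closely by an ISRE, Irgm1, chr11:48871371-48871670 (minus strand), has 2 overlapping ISRE matches close to its start, and Irf1, chr11:53769764-53770063 (plus strand), has a GAS alone.
Isg15: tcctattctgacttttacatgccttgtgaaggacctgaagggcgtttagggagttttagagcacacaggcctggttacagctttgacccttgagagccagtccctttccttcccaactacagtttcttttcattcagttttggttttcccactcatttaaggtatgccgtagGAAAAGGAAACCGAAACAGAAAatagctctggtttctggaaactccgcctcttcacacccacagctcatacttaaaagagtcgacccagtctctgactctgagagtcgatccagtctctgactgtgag
Ifit1: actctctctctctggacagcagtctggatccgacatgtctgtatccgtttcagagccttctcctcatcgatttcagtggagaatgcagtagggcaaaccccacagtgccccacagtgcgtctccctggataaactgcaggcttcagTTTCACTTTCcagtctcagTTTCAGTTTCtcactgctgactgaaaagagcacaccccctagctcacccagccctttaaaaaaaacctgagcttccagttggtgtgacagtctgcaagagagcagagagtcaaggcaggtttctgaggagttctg
Bst2: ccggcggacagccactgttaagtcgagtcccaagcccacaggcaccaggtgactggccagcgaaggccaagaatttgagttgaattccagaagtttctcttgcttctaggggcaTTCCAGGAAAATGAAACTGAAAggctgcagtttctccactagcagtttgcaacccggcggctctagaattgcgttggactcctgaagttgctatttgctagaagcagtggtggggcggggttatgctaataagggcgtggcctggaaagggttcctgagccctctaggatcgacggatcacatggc
Igtp: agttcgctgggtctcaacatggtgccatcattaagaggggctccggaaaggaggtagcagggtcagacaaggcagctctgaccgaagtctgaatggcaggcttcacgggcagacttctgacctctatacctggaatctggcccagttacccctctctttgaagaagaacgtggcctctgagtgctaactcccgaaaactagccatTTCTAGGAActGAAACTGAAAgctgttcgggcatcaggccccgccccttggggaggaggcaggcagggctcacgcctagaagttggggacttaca
Irgm1: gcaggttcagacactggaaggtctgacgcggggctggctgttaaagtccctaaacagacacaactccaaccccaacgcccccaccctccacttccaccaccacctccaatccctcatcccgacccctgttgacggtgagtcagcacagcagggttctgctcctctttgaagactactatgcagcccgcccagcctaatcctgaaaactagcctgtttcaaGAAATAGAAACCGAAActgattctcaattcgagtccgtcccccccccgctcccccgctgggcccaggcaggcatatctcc
Irf1: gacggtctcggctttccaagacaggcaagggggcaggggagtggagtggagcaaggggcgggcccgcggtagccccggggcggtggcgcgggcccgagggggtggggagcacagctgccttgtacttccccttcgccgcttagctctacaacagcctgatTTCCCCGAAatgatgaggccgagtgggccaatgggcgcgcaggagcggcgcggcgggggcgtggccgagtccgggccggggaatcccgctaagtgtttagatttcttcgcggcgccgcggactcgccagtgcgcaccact

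**Figure D1:**
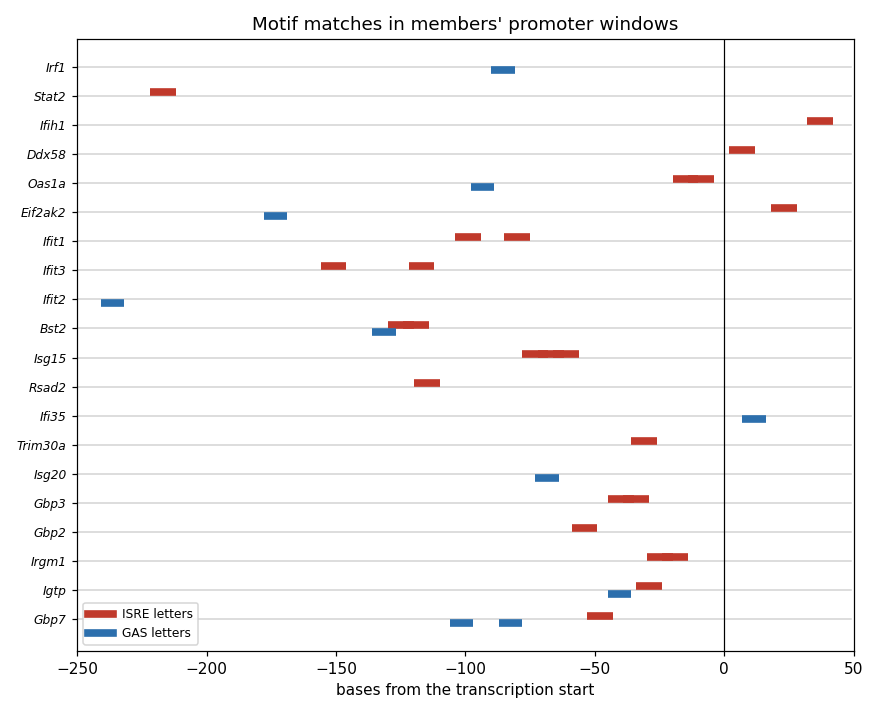
Positions of ISRE letters (red) and GAS letters (blue) in the first promoter window of the 20 members that hold at least 1 match; the horizontal axis is the distance in bases from the transcription start. Matches lie on both sides of the start, and the 3 ISRE matches of Isg15 form 1 continuous block.

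Before any comparison, the levels themselves were high in both groups. Tests covered the 11957 genes whose mean over the 6 libraries reached 1 FPKM, and all 39 members were among them. The members lay at percentiles of 56.3 and above, with a median percentile of 92.8, and 24 of the 39 were among the top 10%. The mean over all 6 libraries was at least 100 FPKM in 24 members and at least 300 FPKM in 7, where the median over all tested genes was 15.5 FPKM. The most abundant were Bst2, which encodes the virion-tethering protein tetherin, and Isg15, which encodes a ubiquitin-like protein conjugated to other proteins. Bst2 had 837, 1053 and 944 FPKM in flow libraries 1 to 3, against 1024, 1429.8 and 1032 FPKM in non-flow controls 1 to 3. Isg15 had 1014, 957 and 825 FPKM in flow libraries 1 to 3, against 908, 982 and 898 FPKM in non-flow controls 1 to 3. Below these came Irf7, Xaf1, Ifit1, Oasl2 and Usp18, at means of 539, 434, 429.9, 417 and 407 FPKM over the 6 libraries. These 5 are neighbours in the order whose values overlapped between libraries. The least abundant was Mx1, which encodes an antiviral dynamin-like GTPase, at a mean of 19.3 FPKM, the lowest of these percentiles. Levels are compared between genes on the FPKM scale, which is per transcript length.

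**Figure D2:**
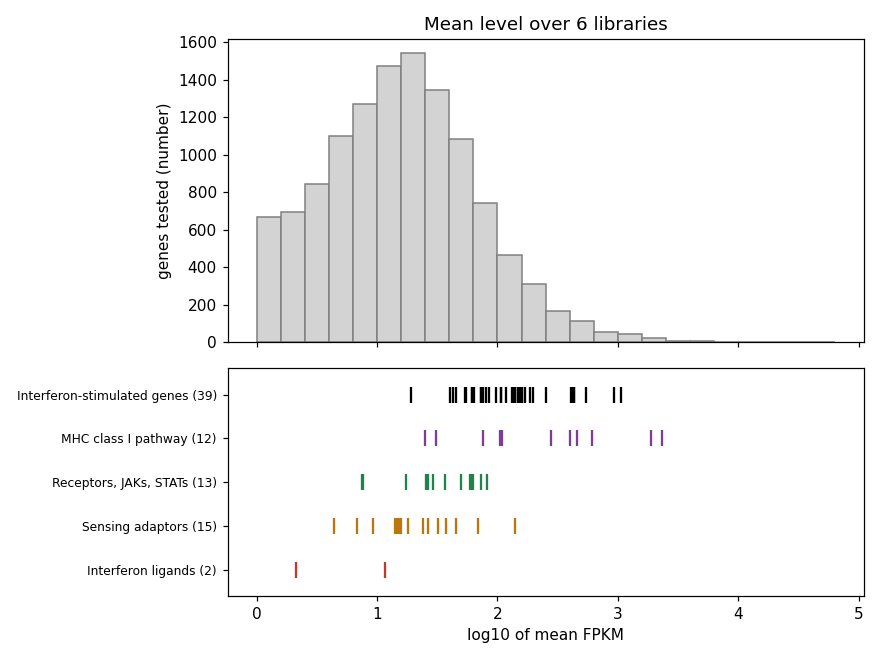
Distribution of the mean FPKM of the 11957 tested genes (grey bars, number of genes, log10 axis) above the means of the 39 interferon-stimulated genes and of 4 other lists of the pathway, 1 tick per tested gene. The members sit in the right part of the distribution, the measured ligands in its left part.

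Between flow and control, no member passed the test. In limma fitted to all 11957 genes, 0 of 39 members had an adjusted p under 0.05, where 0.0167% of all genes did, and the members' adjusted p ranged from 0.559 to 1. Without adjustment 1 of 39 (Tap1, lower in flow) had a limma p under 0.05, against 8.52% of all genes (4.82% lower and 3.7% higher in flow). When libraries with adjacent title numbers were joined as a block, a pairing that no label states, 9 of 39 did, against 11.7% of all genes. The log2 fold change was below 0 in 30 of 39 members (76.9%) and in 51.7% of all genes. Its median over the members was -0.15, beside -0.01 over all genes tested, on the log2(FPKM + 1) scale. In 4 of 39 members the groups did not overlap, against 15.1% of all genes. In those 4 all flow values lay below all control values, as in 8% of all genes, and in 0 members did they all lie above, as in 7.12% of all genes. The 95% limma interval, not adjusted for the number of genes, excluded a rise of 1 log2 unit in 39 of 39 members and a fall of that size in 36, the other 3 being Mx1, Irf7 and Zbp1. The list's median was -0.01 without flow library 3, -0.03 without non-flow control 2 and -0.25 without flow library 2, and -0.14 to -0.21 without any other single library. Without flow library 2 the number of members without overlap was 15, all lower in flow, against 11.3% of all genes lower (21.6% in either direction). Without non-flow control 1 it was 10, all lower in flow, against 11.8% of all genes lower (22.8% in either direction). Without flow library 3 it was 9, with 5 higher and 4 lower, against 45.8% of all genes in either direction. In bulk RNA, fewer cells that express a gene and less RNA per cell cannot be told apart.

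**Figure D3:**
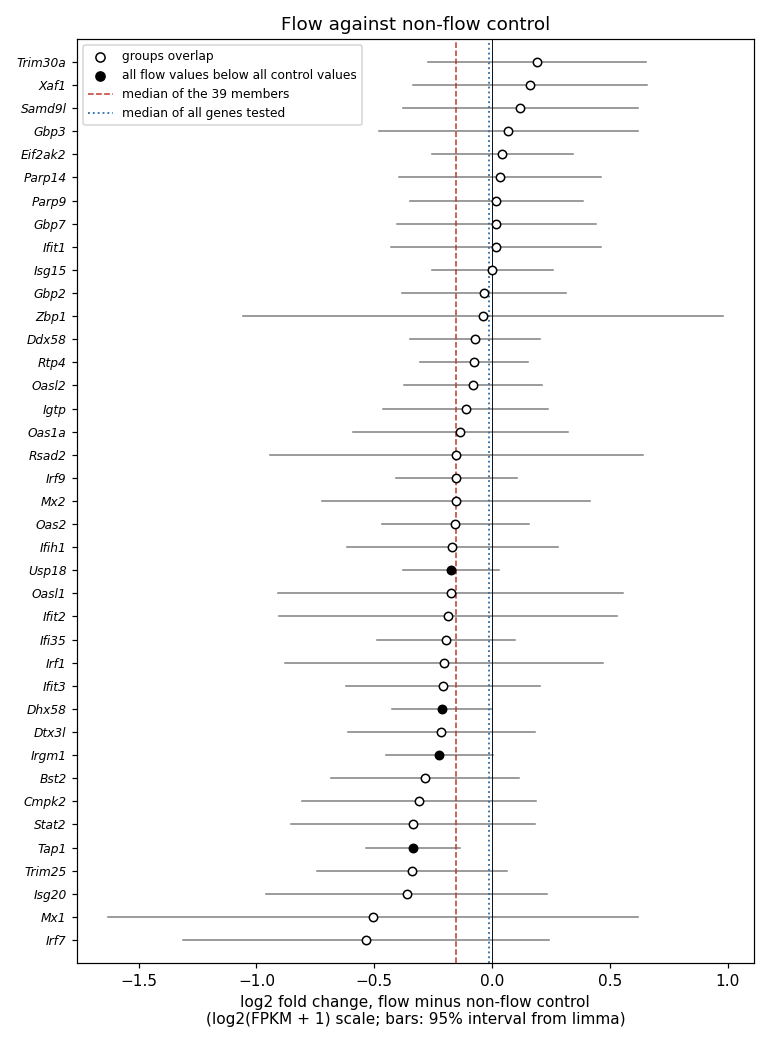
Log2 fold change of each member, flow minus non-flow control, with its 95% limma interval, sorted by size; filled points mark the 4 members whose flow values all lie below their control values. The median of the members (-0.15, dashed) lies left of the median of all genes tested (-0.01, dotted), and only the interval of Tap1 leaves out 0.

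The 4 members without overlap were Tap1, Irgm1, Dhx58 and Usp18. Tap1, a subunit of the transporter that carries peptides into the endoplasmic reticulum for MHC class I, had 144, 135 and 145 FPKM in flow libraries 1 to 3, against 175, 188 and 172 FPKM in non-flow controls 1 to 3. All flow values were low, and the gap between the groups was wider than the spread within either (log2 fold change -0.34, SE 0.08, adjusted p = 0.559). Its gene (chromosome 17, 34187553 to 34197225 of mm10) has 3.87% of its exon bases in common with Psmb9, read from the other strand. Irgm1, an immunity-related GTPase that acts on pathogen vacuoles and autophagy, had 142, 149.8 and 142 FPKM in flow libraries 1 to 3, against 153, 173 and 181 FPKM in non-flow controls 1 to 3 (log2 fold change -0.22, SE 0.09, adjusted p = 0.559). Dhx58, the RNA helicase LGP2 that tunes signalling by the other cytosolic RNA sensors, had 130.0, 147 and 136 FPKM in flow libraries 1 to 3, against 158, 168 and 154 FPKM in non-flow controls 1 to 3 (log2 fold change -0.21, SE 0.09, adjusted p = 0.559). Usp18, the protease that removes ISG15 from proteins and restrains IFNAR signalling, had 382, 403 and 364 FPKM in flow libraries 1 to 3, against 414, 453 and 429 FPKM in non-flow controls 1 to 3 (log2 fold change -0.17, SE 0.08, adjusted p = 0.559). In Irgm1, Dhx58 and Usp18 the gap between the nearest flow and control values was smaller than the range within either group.

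Among the regulators, the flow means of all 5 were below the control means, but only Usp18 showed no overlap. Irf7, the transcription factor that amplifies type I interferon production, was the most abundant regulator, with 358, 607 and 348 FPKM in flow libraries 1 to 3, against 536, 911 and 472 FPKM in non-flow controls 1 to 3. Non-flow control 2 stood far above the other 5 libraries, and the flow value of library 2 exceeded controls 1 and 3 (log2 fold change -0.53, SE 0.32, adjusted p = 0.577). Stat2, the subunit that gives the STAT complex its activation domain, had 51.9, 72.4 and 45.2 FPKM in flow libraries 1 to 3, against 67.6, 85.9 and 59.4 FPKM in non-flow controls 1 to 3 (log2 fold change -0.34, SE 0.21, adjusted p = 0.5899). Irf9, its DNA-binding partner, had 38.4, 39.6 and 35.9 FPKM in flow libraries 1 to 3, against 37.6, 44.9 and 44.8 FPKM in non-flow controls 1 to 3 (log2 fold change -0.15, SE 0.11, adjusted p = 0.611). Flow and control values of Irf9 were interleaved. Irf1, a transcription factor induced chiefly by type II interferon, had 77.2, 104 and 57.5 FPKM in flow libraries 1 to 3, against 90.8, 117 and 66.8 FPKM in non-flow controls 1 to 3 (log2 fold change -0.21, SE 0.28, adjusted p = 0.764). In Irf1, flow library 2 lay above controls 1 and 3, and flow library 1 above control 3. Set against the control of the same number, each flow library was lower in Irf7, Usp18, Stat2 and Irf1. In Irf9 flow library 1 was above control 1. No label pairs these numbers.

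The sensors of foreign nucleic acid showed the same overlap apart from Dhx58. Ddx58, which encodes the RNA helicase RIG-I, had 125, 123 and 99.3 FPKM in flow libraries 1 to 3, against 123, 124 and 117 FPKM in non-flow controls 1 to 3, a range of 1.26-fold from lowest to highest, with flow library 3 below the other 5. Ifih1, the RNA helicase MDA5, had 150.0, 135 and 94.9 FPKM in flow libraries 1 to 3, against 135, 155 and 130.2 FPKM in non-flow controls 1 to 3, again with flow library 3 lowest. Trim25, a ubiquitin ligase linked to RIG-I signalling, had 79.04, 115 and 92.7 FPKM in flow libraries 1 to 3, against 106, 137 and 118 FPKM in non-flow controls 1 to 3 (log2 fold change -0.34, SE 0.17, adjusted p = 0.559). For Trim25, flow library 2 lay between the controls and the other flow libraries were below all of them. Zbp1, a sensor of Z-form nucleic acid that can trigger cell death, had 129.6, 216 and 75.01 FPKM in flow libraries 1 to 3, against 109.9, 193 and 108 FPKM in non-flow controls 1 to 3. Libraries 2 of both groups were high and flow library 3 was the lowest, and the SE of its log2 fold change was 0.42 around an estimate of -0.04.

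In the OAS family, whose enzymes make the oligoadenylate that activates RNase L, Oas1a had 66.2, 88.4 and 61.2 FPKM in flow libraries 1 to 3, against 70.5, 95.8 and 70.6 FPKM in non-flow controls 1 to 3, and Oas2 had 59.6, 55.5 and 57.99 FPKM in flow libraries 1 to 3, against 58.9, 77.1 and 58.7 FPKM in non-flow controls 1 to 3. The OAS-like gene Oasl2 had 416, 435 and 363 FPKM in flow libraries 1 to 3, against 399, 487 and 402 FPKM in non-flow controls 1 to 3, and Oasl1, known in mouse as an inhibitor of Irf7 translation, had 125, 196 and 108 FPKM in flow libraries 1 to 3, against 126, 226 and 135 FPKM in non-flow controls 1 to 3. In all 4, non-flow control 2 was the highest library and the groups overlapped, with log2 fold changes of -0.18 to -0.08. Eif2ak2, which encodes PKR, the kinase that stops translation when it binds double-stranded RNA, had 46.3 ± 6.504 FPKM in flow and 44.6 ± 1.46 FPKM in controls (SD, n = 3 each; log2 fold change 0.04, SE 0.12, adjusted p = 0.898).

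The IFIT genes, which encode tetratricopeptide proteins that bind viral RNA and lie beside one another on chromosome 19, did not separate the groups. Ifit1 had 409, 543 and 352 FPKM in flow libraries 1 to 3, against 366, 442 and 467 FPKM in non-flow controls 1 to 3. Ifit3 had 239, 270.0 and 192 FPKM in flow libraries 1 to 3, against 225, 302 and 281 FPKM in non-flow controls 1 to 3. Ifit2 had 59.03, 79.4 and 36.97 FPKM in flow libraries 1 to 3, against 53.3, 79.9 and 60.7 FPKM in non-flow controls 1 to 3. Flow library 3 was the lowest of the 6 in each, and the log2 fold changes were 0.02, -0.21 and -0.19, with SE 0.18, 0.17 and 0.30. Near-identical copies exist for Ifit3, Oas1a, Trim30a and several guanylate-binding genes in the mouse genome, so their values are uncertain where the authors' counting may have split reads.

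Other antiviral genes included the member with the widest range. Mx1 had 16.1, 27.4 and 7.001 FPKM in flow libraries 1 to 3, against 19.5, 28.5 and 17.4 FPKM in non-flow controls 1 to 3, a 4.07-fold range set by flow library 3 (log2 fold change -0.50, SE 0.46, adjusted p = 0.659). Its relative Mx2, annotated in GENCODE M21 as a polymorphic pseudogene of the reference strain, had 40.96, 52.1 and 29.4 FPKM in flow libraries 1 to 3, against 38.5, 54.4 and 41.6 FPKM in non-flow controls 1 to 3 (log2 fold change -0.15, SE 0.23, adjusted p = 0.794). Rsad2, which encodes viperin, an enzyme that makes a chain-terminating nucleotide, was highest in non-flow control 3 and lowest in non-flow control 1, with 142, 225 and 158 FPKM in flow libraries 1 to 3, against 124, 196 and 284 FPKM in non-flow controls 1 to 3. Its neighbour Cmpk2, a nucleotide kinase that supplies viperin's substrate, had 84.7, 107 and 70.5 FPKM in flow libraries 1 to 3, against 87.3, 131 and 108 FPKM in non-flow controls 1 to 3 (log2 fold change -0.31, SE 0.20, adjusted p = 0.598). Isg20, an exonuclease of single-stranded RNA, had 59.7, 82.4 and 50.4 FPKM in flow libraries 1 to 3, against 67.8, 108 and 72.4 FPKM in non-flow controls 1 to 3 (log2 fold change -0.36, SE 0.25, adjusted p = 0.602). In Cmpk2 and Isg20 flow libraries 1 and 3 lay below all controls and flow library 2 did not. Bst2 averaged 945 ± 108 FPKM in flow and 1162 ± 232 FPKM in controls (SD, n = 3 each; log2 fold change -0.29, SE 0.16, adjusted p = 0.569), and Isg15 averaged 932 ± 96.7 FPKM in flow and 929 ± 45.7 FPKM in controls, with flow means and control means closer than the SD of either.

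A smaller set of antiviral genes had flow means above control means, none of them past the test. Trim30a, a tripartite-motif protein that limits NF-kB signalling in mouse, had the largest positive estimate of all members, with 174, 192 and 116 FPKM in flow libraries 1 to 3, against 139, 139 and 135 FPKM in non-flow controls 1 to 3 (log2 fold change 0.19, SE 0.19, adjusted p = 0.684). Xaf1, an antagonist of the apoptosis inhibitor XIAP, had 475, 573 and 339 FPKM in flow libraries 1 to 3, against 373, 458 and 386 FPKM in non-flow controls 1 to 3 (log2 fold change 0.16, SE 0.20, adjusted p = 0.749). Samd9l, a translation-restricting antiviral protein, had 125, 136 and 79.01 FPKM in flow libraries 1 to 3, against 102, 101 and 101 FPKM in non-flow controls 1 to 3 (log2 fold change 0.12, SE 0.21, adjusted p = 0.821). In these 3 genes flow libraries 1 and 2 exceeded all controls while flow library 3 lay below all of them, and with the GC trend of each library removed the estimates of Trim30a and Samd9l were below 0. The last members of the antiviral group had lower means in flow. Ifi35, which forms a complex with Nmi, had 149 ± 15.05 FPKM in flow and 172 ± 19.2 FPKM in controls, with 16.8% of its exon bases shared with a transcript read from the other strand. Rtp4, a receptor-transporting protein, had 136 ± 0.295 FPKM in flow and 144 ± 13.7 FPKM in controls (SD, n = 3 each, for both genes), and 13.9% of its exon bases are shared with another gene of the same strand.

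The GTPases, a class that type II interferon induces strongly, also overlapped between groups, apart from Irgm1. The guanylate-binding genes Gbp2, Gbp3 and Gbp7 lie in a cluster on chromosome 3 and encode proteins that attack pathogen vacuoles. Gbp2 had 159, 201 and 142 FPKM in flow libraries 1 to 3, against 172, 179 and 158 FPKM in non-flow controls 1 to 3. Gbp3 had 213, 255 and 144 FPKM in flow libraries 1 to 3, against 183, 219.7 and 169 FPKM in non-flow controls 1 to 3. Gbp7 had 55.9, 65.6 and 40.97 FPKM in flow libraries 1 to 3, against 53.5, 53.2 and 50.9 FPKM in non-flow controls 1 to 3. Flow library 2 was the highest and flow library 3 the lowest of all 6 in each of the 3, so that the flow group enclosed the controls. Another gene of the same strand shares 11.3% of the exon bases of Gbp7. Igtp, which encodes Irgm3, had 142 ± 21.96 FPKM in flow and 152 ± 15.5 FPKM in controls (SD, n = 3 each; log2 fold change -0.11, SE 0.14, adjusted p = 0.749).

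Parp9 and Dtx3l, which encode an ADP-ribosyltransferase and its ubiquitin ligase partner, are head to head on chromosome 16 and share exon bases on opposite strands (9.4% of Parp9 and 8% of Dtx3l). Parp9 had 97.8, 79.1 and 67.4 FPKM in flow libraries 1 to 3, against 86.5, 75.4 and 76.9 FPKM in non-flow controls 1 to 3. Dtx3l had 42.1, 61.4 and 47.9 FPKM in flow libraries 1 to 3, against 51.01, 62.1 and 61.7 FPKM in non-flow controls 1 to 3. Their order differed, with flow library 1 the highest of the 6 for Parp9 and the lowest for Dtx3l (log2 fold changes 0.02, SE 0.15, and -0.22, SE 0.16). The use of strand in the authors' counting is not given in the sources used here, so reads of the shared bases cannot be assigned. Parp14, another ADP-ribosyltransferase nearby on the chromosome, had 59.7, 95.01 and 70.6 FPKM in flow libraries 1 to 3, against 66.4, 75.2 and 74.9 FPKM in non-flow controls 1 to 3 (log2 fold change 0.03, SE 0.18, adjusted p = 0.952).

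**Figure D4:**
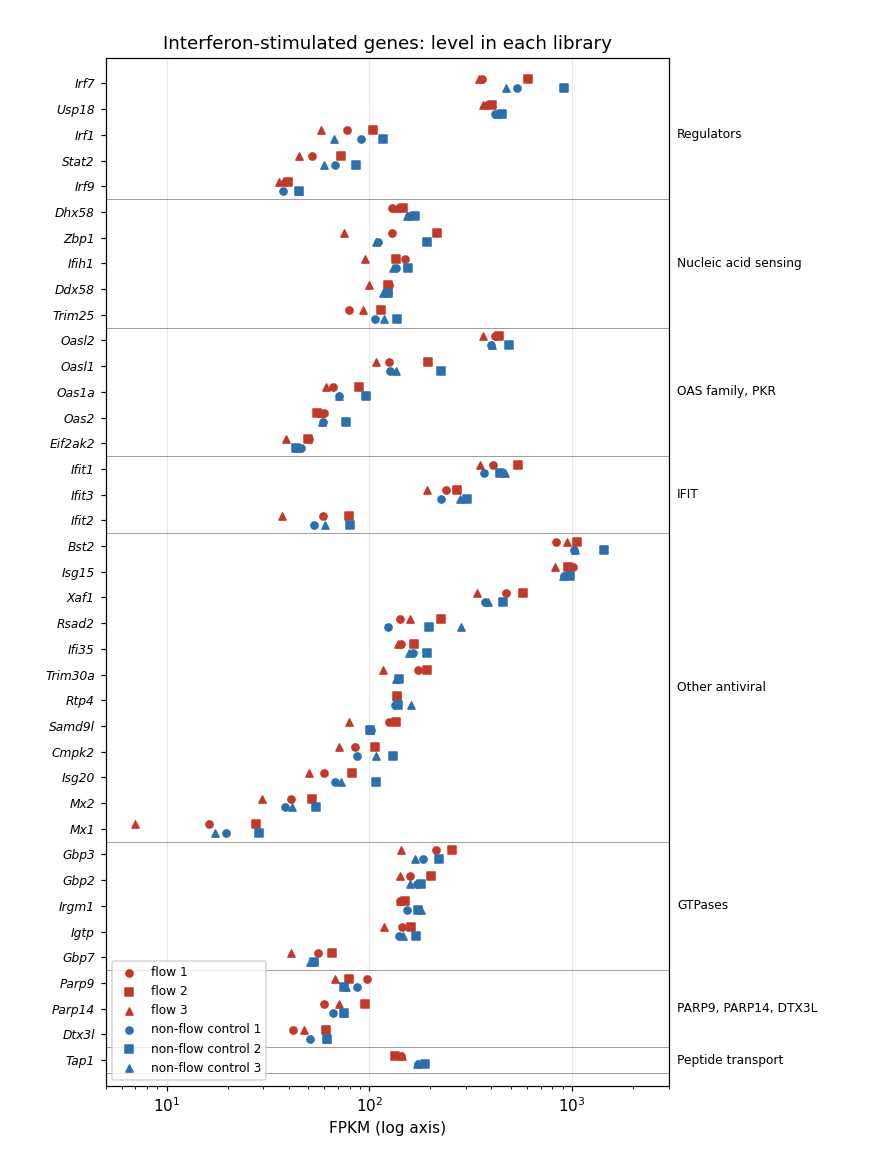
FPKM of every member in each of the 6 libraries (log axis), grouped by role and sorted by level within a role; red symbols are flow libraries, blue symbols non-flow controls, and the symbol shape gives the library number. Libraries numbered 2 (squares) tend to lie right and flow library 3 (red triangles) left within each gene, and only Tap1, Irgm1, Dhx58 and Usp18 have all red symbols left of all blue ones.

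The members shared an order among the libraries that ran across the groups. Flow library 3 was the lowest of the 6 libraries for 30 of 39 members, against 14.8% of all tested genes, and below the member's own mean for 39 of 39. Non-flow control 2 was the highest for 23 of 39, against 15.2% of all tested genes. Within the flow group, library 2 was the highest for 32 members, against 33.1% of all tested genes. Taking each member's deviation from its own mean on the log2(FPKM + 1) scale, the median over the 39 was -0.06, 0.19 and -0.27 in flow libraries 1 to 3, against -0.05, 0.22 and -0.02 in non-flow controls 1 to 3. Over all tested genes the medians stayed within -0.01 and 0.00 in each library. The order was not particular to the members. In flow library 2, flow library 3 and non-flow control 2 the medians were 0.19, -0.35 and 0.41 for MHC class I genes. They were 0.71, -0.39 and 0.44 for the interferon-induced chemokines, and 0.16, -0.25 and 0.18 for the 37 further interferon-induced genes. Flow library 3 was the deepest and flow library 2 the shallowest, and the part of depth in this order was not tested. By role, the deviation in flow library 3 ran from -0.13 for Tap1 to -0.45 for the regulators. Replicates were collected on separate days, per the labels' protocols, and which libraries share a day is not given, so a day and a library cannot be told apart.

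**Figure D5:**
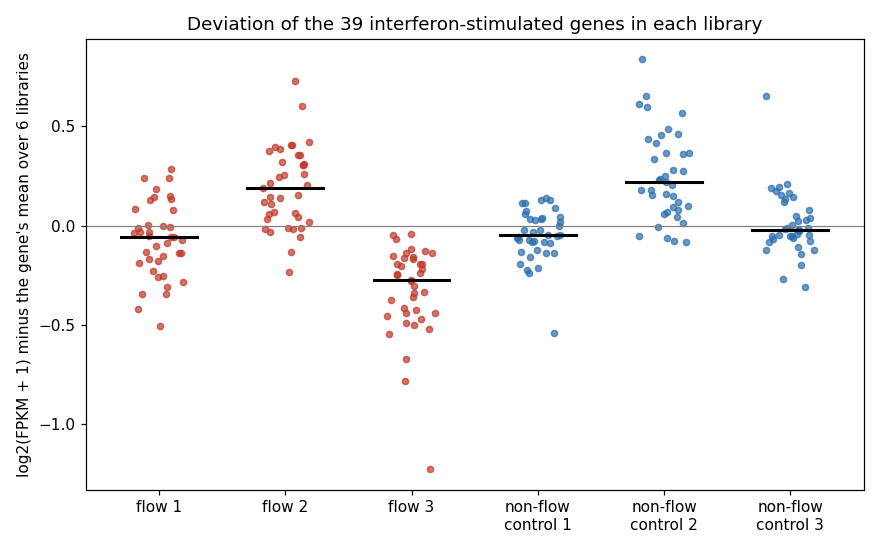
Deviation of each of the 39 members from its own mean over the 6 libraries, in log2(FPKM + 1) units, 1 point per gene and library; black lines are medians. Flow library 3 has the lowest median (-0.27), and flow library 2 (0.19) and non-flow control 2 (0.22) have the highest.

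GC content moved with the fold changes. Over 10460 protein-coding genes the log2 fold change correlated with the GC content of the transcripts at a Pearson r of -0.56, and over the 39 members at -0.59, a description in which all genes share the same 6 libraries. The median log2 fold change was 0.02 for the 13 members lowest in GC (8 above 0), -0.16 for the middle 13 (1 above 0) and -0.21 for the 13 highest in GC (0 above 0). When the GC trend of each library was removed in protein-coding genes, 33 of 38 members were below 0 with a median of -0.13, and 7 were without overlap, all lower in flow, where 6% of all genes were. Of the 9 members with a positive log2 fold change, 7 then had a negative one. The 2 that remained positive were Xaf1 and Gbp3.

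Upstream of the members, the type I ligand Ifnb1 was measured in every library, with 10.2, 22.9 and 12.3 FPKM in flow libraries 1 to 3, against 4.81, 9.82 and 10.4 FPKM in non-flow controls 1 to 3. Flow library 2 stood above the other 5 and flow library 1 lay below non-flow control 3, so the groups overlapped (log2 fold change 0.77, SE 0.37, adjusted p = 0.559). Ifna4 had 0.821, 3.93 and 3.29 FPKM in flow libraries 1 to 3, against 0.758, 1.63 and 2.38 FPKM in non-flow controls 1 to 3 (log2 fold change 0.44, SE 0.45, adjusted p = 0.692), and in the other deposited table its log2 fold change was -0.26. There 3 reads on 1 kb equalled 4.37 FPKM in non-flow control 1, above each of these Ifna4 values, so that sign is uncertain. Of the other 6 ligand genes in the table, Ifng, Ifne and Ifnk were listed at 0 in all 6 libraries, and Ifna1, Ifna2 and Ifna5 stayed below 1 FPKM. The receptor chains were expressed in both groups. Ifnar1 had 27.2 ± 2.96 FPKM in flow and 24.1 ± 1.03 FPKM in controls, Ifnar2 had 50.5 ± 3.48 FPKM in flow and 49.2 ± 3.54 FPKM in controls and Ifngr2 had 60.3 ± 8.95 FPKM in flow and 61.5 ± 3.82 FPKM in controls (SD, n = 3 each). Ifngr1 had 39.04, 39.2 and 38.8 FPKM in flow libraries 1 to 3, against 35.04, 35.7 and 34.2 FPKM in non-flow controls 1 to 3, with all flow values above all controls by a small margin (log2 fold change 0.15, SE 0.08, adjusted p = 0.559), but in the other deposited table its log2 fold change was -0.23.

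Among 13 receptor, kinase, STAT and inhibitor genes, 0 passed the test in either direction, 5 were above 0 and 8 below, and the median was -0.04. Without adjustment 3 of the 13 had a p under 0.05, against 8.52% of all genes. Socs1, which encodes an inhibitor of JAK kinases, had 15.8, 28.3 and 21.4 FPKM in flow libraries 1 to 3, against 36.3, 46.3 and 28.5 FPKM in non-flow controls 1 to 3. Jak2, a kinase of the type II receptor, had 18.6, 25.9 and 16.2 FPKM in flow libraries 1 to 3, against 12.99, 15.2 and 14.7 FPKM in non-flow controls 1 to 3, and Stat3 had 69.8, 55.7 and 69.6 FPKM in flow libraries 1 to 3, against 84.9, 72.5 and 88.7 FPKM in non-flow controls 1 to 3. The limma adjusted p was 0.559 in each of the 3. The phosphatase gene Ptpn11 had 58.7 ± 2.75 FPKM in flow and 67.1 ± 3.49 FPKM in controls (SD, n = 3 each). Flow values lay above all controls in Jak2 and Ifngr1, and below all controls in 4 of the 13, Socs1, Stat3, Ptpn11 and Tyk2, the last named after its values were seen. Over all genes tested the shares were 7.12% above and 8% below. The GC content of the transcripts was 58.7%, 52.5%, 51.2% and 56.0% in Socs1, Stat3, Ptpn11 and Tyk2. It was 44.2% in Jak2 and 47.7% in Ifngr1.

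Of 15 adaptors and regulators of nucleic acid sensing 0 passed the test, 11 were below 0 and 4 above, and the median was -0.18. Those with the smallest p were Trex1, a DNA exonuclease, at 39.7 ± 7.21 FPKM in flow and 51.7 ± 5.08 FPKM in controls, Adar, an RNA-editing deaminase, at 62.4 ± 10.2 FPKM in flow and 76.2 ± 3.55 FPKM in controls, Irf3 at 13.5 ± 1.09 FPKM in flow and 15.7 ± 1.396 FPKM in controls and Ticam1 at 8.54 ± 1.98 FPKM in flow and 10.1 ± 0.453 FPKM in controls (SD, n = 3 each). All exon bases of Trex1 (100%) are shared with Atrip on the same strand, so its value cannot be given to Trex1 alone, and 16.8% of those of Adar are shared with a gene of the other strand. In 1 of the 15, Trex1, the groups did not overlap, with flow lower, against 8% of all genes. Of 12 genes of MHC class I presentation 0 passed, 9 were below 0, and the median was -0.11. Tapbp, which bridges the peptide transporter and class I molecules, had 239, 329.9 and 396 FPKM in flow libraries 1 to 3, against 465, 545 and 433 FPKM in non-flow controls 1 to 3 (log2 fold change -0.60, SE 0.20, adjusted p = 0.559). All its flow values were below all controls, as for Tap1, while the groups overlapped in its partner Tap2, with 107, 96.2 and 79.8 FPKM in flow libraries 1 to 3, against 113, 144 and 99.1 FPKM in non-flow controls 1 to 3. Psmb10 had 92.1 ± 14.4 FPKM in flow and 117 ± 28.5 FPKM in controls and Erap1 had 34.5 ± 11.98 FPKM in flow and 27.5 ± 5.57 FPKM in controls (SD, n = 3 each). Genes of the other strand share 24.9% of the exon bases of Tapbp, 18.5% of those of Tap2 and 11.5% of those of Erap1. The GC content of the transcripts was 58.4% for Tapbp, 57.9% for Tap2, 58.3% for Psmb10 and 41.5% for Erap1.

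Of 37 further interferon-induced genes, 2 of them also counted in a list above, 0 passed the test, 25 were below 0 and 12 above, with a median of -0.09. Without adjustment 5 of the 37 had a limma p under 0.05, all lower in flow, against 4.82% of all genes lower in flow. In 9 of the 37 all flow values lay below all controls, where 8% of all genes did, and in 0 all lay above. The 4 with the smallest p were Uba7, Parp10, Mov10 and Oas3. The GC content of their transcripts was 54.9%, 57.7%, 56.7% and 54.6%, beside a median of 50% over protein-coding genes. Over those coding genes the log2 fold change fell with GC content (Pearson r of -0.56), and the part of GC in these counts was not tested. Uba7, the enzyme that activates ISG15 for conjugation, had 35.96, 31.5 and 36.3 FPKM in flow libraries 1 to 3, against 52.8, 59.2 and 57.6 FPKM in non-flow controls 1 to 3, a gap wider than the spread within either group (log2 fold change -0.69, SE 0.10, adjusted p = 0.413). Parp10 had 58.5, 63.2 and 68.8 FPKM in flow libraries 1 to 3, against 86.1, 99.4 and 93.4 FPKM in non-flow controls 1 to 3 (log2 fold change -0.54, SE 0.10, adjusted p = 0.559). Mov10, an RNA helicase, had 52.5 ± 2.57 FPKM in flow and 67.6 ± 6.11 FPKM in controls, and Oas3 had 75.4 ± 7.86 FPKM in flow and 99.7 ± 12.3 FPKM in controls (SD, n = 3 each). The interferon-induced chemokines Cxcl9, Cxcl10, Cxcl11 and Ccl5 had log2 fold changes of 0.18, 0.08, 0.20 and 0.15, with 0 of 4 past the test (adjusted p = 0.836 to 0.918). Cxcl9 had 13.8, 34.3 and 8.31 FPKM in flow libraries 1 to 3, against 12.4, 21.2 and 10.2 FPKM in non-flow controls 1 to 3, with libraries numbered 2 highest in each group, as for most members. Of the exon bases of Cxcl11, 41.7% are shared with a gene of the other strand.

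A further deposited FPKM table, estimated at 690000 to 4720000 reads per library, has 2 flow columns whose names could not be matched to a title, and there the 39 members ranged between 6.57 and 1283 FPKM. In it 3 reads on 1 kb equalled 4.37 FPKM in non-flow control 1 and 0.635 to 0.83 FPKM in the other libraries. Limma there called 0 of 39 (0.0252% of all genes), with the lowest adjusted p at 0.751, and 3 members were without overlap, all lower in flow (5.91% of all genes). The median log2 fold change was -0.08, and 35 of 39 members had the same sign as in the first table, the other 4 being Mx2, Oasl2, Parp9 and Zbp1. The tables were not taken as independent of each other.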

How the data were processed

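RNA of 3 flow and 3 sham-treated non-flow cultures of MLO-Y4 cells was read in 50 single-end cycles, per the labels' protocols. The authors deposited FPKM values, 1 per gene and library, made, per the submitters' processing notes, on build mm10 with Cufflinks 2.2.1, TopHat2 2.0.9 and CASAVA 1.8.2. Which annotation was counted, and whether strand was used, is not given in the sources used here. The 39 members, the pathway lists and the tests were chosen with earlier results of these data known.

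FPKM values of genes with a mean of at least 1 over the 6 libraries were transformed as log2(FPKM + 1) and fitted with limma 3.58.1 in R 4.3.3 (trended variance, 2-sided, flow minus control), with Benjamini-Hochberg adjustment over all genes tested and a threshold of 0.05. The pseudocount understates changes of low genes. The code was tested on simulated data with the same SD for all genes. It recovered 42% of genes given a log2 change of 0.5 and 100% of those given 2, so changes near 0.5 can be missed. FPKM gives no counts, so depth was estimated from whole-read steps in low values of single-transcript genes over 800 nt. Replicates were collected on separate days, but the labels do not say whether they came from separate thawings, so p-values measure the spread between these cultures.

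Every member is named with its values; of each pathway list the 4 tested genes with the smallest p are named, and the ligands and the receptor chains always; 1 further gene is not reported here. Exon overlap and GC content come from GENCODE M21, promoter windows from RefSeq. Alternatives were another pseudocount, filter or scaling, no variance trend, removal of the GC trend, protein-coding genes alone, a replicate block, the other table and each library left out.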

Additional observations from a re-analysis of the deposited data

How the results depend on the processing

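No member passed the test under any alternative run, and the list's median log2 fold change stayed below 0 in each. The number of all genes called, 2 as reported, was 4 with a pseudocount of 0.1, 1 with a pseudocount of 5, 4 without the filter on low values, 0 with the GC trend removed, 0 in protein-coding genes alone and 1 with the replicate block. With one library left out it ranged from 9 to 24, the highest without flow library 3. The members without overlap, 4 as reported, were all lower in flow under every alternative except without flow library 3. Shares in brackets are of all genes without overlap and lower in flow. The number of such members was 7 with the GC trend removed, with or without the block (6%). It was 5 after quantile normalization (6.63%), 3 with library medians made equal (7.89%) and 3 in the other deposited table (5.91%). It ranged from 4 to 15 with one library left out. It was 5 without flow library 1 (10.9%), 15 without flow library 2 (11.3%) and 10 when non-flow control 1 was omitted (11.8%). It was 4 when control 2 (12.7%) or control 3 (13.3%) was omitted. Without flow library 3 it was 9, with 5 higher and 4 lower (45.8% of all genes in either direction). Fewer libraries make such separation easier.

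The block joined libraries with adjacent title numbers. Deviations from the group means correlated at 0.04, 0.02 and 0.06 over all tested genes in these 3 pairs. Values so near 0 can neither show nor exclude a pairing, and no label gives one, so the main fit left the block out. Over all genes each flow library correlated best with its own number. Non-flow control 2 did not, at 0.0268 with flow library 1 and 0.0227 with flow library 2. Over the 39 members alone the same pairs correlated at 0.55, 0.67 and 0.43, and each library correlated best with its own number. The titles place a control and a flow library at each pair of adjacent numbers, and replicates were collected on separate days. The titles and these correlations hint at a pairing, but no label states one. Under the block the members' median SE was 0.10, against 0.17 without it, and 9 members had an unadjusted limma p under 0.05 (11.7% of all genes), and 11 did with the block and GC removal together (12.2%). The members' lowest limma adjusted p was 0.423 under the block and 0.188 with the block and GC removal, against 0.559 in the main fit. The lowest under any alternative was 0.0759, without flow library 3, where 24 of all genes were called.

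Some log2 fold changes changed sign. With the GC trend removed, with or without the replicate block, the values were -0.097 for Eif2ak2, -0.15 for Gbp7, -0.15 for Ifit1, 0.085 for Isg15, 0.0072 for Oasl1, -0.061 for Parp14, -0.062 for Parp9, -0.16 for Samd9l, -0.031 for Trim30a and 0.014 for Zbp1. In the other deposited table they were -0.26 for Ifna4, -0.23 for Ifngr1, 0.028 for Mx2, 0.060 for Oasl2, -0.054 for Parp9 and 0.0031 for Zbp1. Isg15, at 0 to 2 decimals as reported, was 1.8e-05 with a pseudocount of 5, 0.0017 after quantile normalization and 0.013 with library medians made equal. The cause was not tested.

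With one library left out, the sign changed for 21 members, whose lowest and highest log2 fold changes were Ddx58 -0.13 to 0.034, Eif2ak2 -0.019 to 0.16, Gbp2 -0.17 to 0.076, Gbp3 -0.11 to 0.30, Gbp7 -0.13 to 0.20, Ifih1 -0.30 to 0.024, Ifit1 -0.16 to 0.16, Ifit2 -0.44 to 0.10, Igtp -0.21 to 0.012, Irf1 -0.42 to 0.0049, Isg15 -0.063 to 0.085, Mx2 -0.34 to 0.060, Oas1a -0.29 to 0.011, Oasl1 -0.42 to 0.086, Oasl2 -0.14 to 0.012, Parp14 -0.15 to 0.18, Parp9 -0.12 to 0.14, Rsad2 -0.46 to 0.14, Samd9l -0.030 to 0.36, Xaf1 -0.011 to 0.37 and Zbp1 -0.41 to 0.34. It also changed for 5 other genes of the pathway, Ccl5 -0.14 to 0.44, Cxcl10 -0.17 to 0.30, Cxcl11 -0.14 to 0.50, Cxcl9 -0.35 to 0.61 and Ifngr2 -0.13 to 0.082. A pseudocount of 0.1, no filter, a mean of at least 5 FPKM, no variance trend, protein-coding genes alone and the block alone changed the sign of no named gene. With 3 libraries a group an exact test of 1 gene cannot go below p = 0.1, and shallow flow library 2 limits the precision of low values, though 3 reads on 1 kb there equal 0.521 FPKM and every member was above that.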
